A study of Mus musculus with 33 samples.

Results

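Saa1, Saa3, Lcn2, Hp, Ptx3, Serpina3g, Serpina3n and Lbp, a set of 8 secreted or intracellular acute-phase and antimicrobial genes, were followed across the cell classes of the adult mouse colon mesenchyme. They were taken by gene symbol, and all 8 had a row among the 31053 genes of the single-cell matrices. The members were chosen by their levels in these same libraries, above all by their split between 2 classes of fibroblast, so those levels and differences are given as descriptions without a test.

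The acute-phase response is the change in secreted proteins that follows infection or tissue injury. It is best known in the liver, where interleukin 6 acting through STAT3, and interleukin 1 and tumour necrosis factor acting through NF-kappa-B and C/EBP factors, switch on serum amyloid A, haptoglobin and protease inhibitors. Fibroblasts, endothelium and epithelium make several of the same proteins locally, and in the gut some of them bind bacterial products or starve bacteria of iron.

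Colons of male and female adult mice were perfused, stripped of the outer muscle, freed of epithelium with EDTA and digested with collagenase. The GFP-low libraries (2 replicates) held cells of PdgfraH2BeGFP mice, which carry a nuclear green fluorescent protein at the locus of the PDGF receptor alpha, sorted without staining for a low reporter level. The whole mesenchyme library (1 library, genotype given as control) held cells sorted as EpCAM-negative and CD45-negative, a gate that removes epithelium and leukocytes. The other 30 samples of the series, for bulk RNA and chromatin accessibility, were not used here. Separate animals are not named for the replicates. Each p-value therefore reflects no more than the spread among these libraries, which may be technical.

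The matrices held 39190629 unique molecular identifiers (UMIs, each standing for 1 captured transcript) in GFP-low replicate 1, 52313765 in GFP-low replicate 2 and 41863444 in whole mesenchyme, and 4834, 6025 and 6793 barcodes passed as cells, in that order. Levels are given as CPM, the UMIs of a gene scaled to a common total of UMIs of its class. The 13660 fibroblasts fell into a Cd81-high class (3488, 4560 and 624 cells in the same order) and a Cd81-low class (1163, 1337 and 2488 cells) that carries Adamdec1. The other named classes resemble the cell type they are named for, and 3 of the 20 clusters stayed unnamed. Between 6 and 11 cell barcodes were shared by any pair of libraries, where independent draws would share 4.29 to 6.02. Different clusters held most of a class in each library: within the Cd81-high class clusters 0, 5 and 11 came mostly from GFP-low replicate 2 and clusters 2 and 8 from GFP-low replicate 1, and within the Cd81-low class cluster 7 came mostly from GFP-low replicate 1 and cluster 1 from whole mesenchyme. The defining genes of both classes took part in forming the clusters. Cd81 had 570, 408 and 471 CPM in Cd81-high fibroblasts, against 29.3, 28.4 and 21.0 CPM in Cd81-low fibroblasts, while Adamdec1 had 307, 213 and 639 CPM in Cd81-high fibroblasts, against 11235, 12670 and 13982 CPM in Cd81-low fibroblasts.

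In the GRCm38.p6 annotation Saa1 lies at chr7:46740497-46743181 and Saa3 at chr7:46711998-46719615, within the same serum amyloid A cluster. Serpina3g, at chr12:104236147-104241939, and Serpina3n, at chr12:104406646-104414334, belong to the mouse Serpina3 cluster. Lcn2 lies at chr2:32384637-32387739, Lbp at chr2:158306493-158332852, Hp at chr8:109575128-109579172 and Ptx3 at chr3:66219887-66225806. RefSeq promoter windows were at hand for 6 of the 8 members, all but Hp and Lbp. The 250 bases before the start given by each promoter window were searched on both strands for the NF-kappa-B form (GGG, any 5 bases, CC), TTGCNNAA (a C/EBP form) and TTCNNNGAA (the STAT form), where N is any base. That start can lie inside the annotated gene. The matches of Saa1 and Saa3 all fell inside the gene. The C/EBP letters occurred in Saa1, Saa3, Lcn2 and Ptx3, 4 of 6 members, and in 9.56% of all 32851 promoter windows. The NF-kappa-B letters occurred in Saa1, Lcn2, Serpina3g and Serpina3n, 4 of 6 members, and in 45.8% of all windows. The STAT letters occurred in Serpina3g alone among the 6 and in 7.02% of all windows. These matches are letters, not sites known to be bound.

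The windows below come from 1 gene of each pattern described later (Lcn2, highest in lymphatic cells, and Ptx3, highest in Cd81-high fibroblasts) and from the 2 serpins, which were higher in Cd81-low fibroblasts. They are written 5′ to 3′ on the gene's own strand with matched letters in capitals. Lcn2 is at chr2:32387740-32387989 (minus strand), with C/EBP letters first and NF-kappa-B letters second. Ptx3 is at chr3:66219637-66219886 (plus strand), with C/EBP letters. Serpina3g is at chr12:104235897-104236146 (plus strand), with NF-kappa-B letters first and STAT letters second. Serpina3n is at chr12:104406458-104406645 (plus strand), the 188 bases of its window outside the annotated gene, with a pair of overlapping NF-kappa-B matches; a second overlapping pair lies in the stretch not shown. The window of Saa3 lies inside the annotated gene and that of Saa1 mostly so, and neither is shown.
Lcn2: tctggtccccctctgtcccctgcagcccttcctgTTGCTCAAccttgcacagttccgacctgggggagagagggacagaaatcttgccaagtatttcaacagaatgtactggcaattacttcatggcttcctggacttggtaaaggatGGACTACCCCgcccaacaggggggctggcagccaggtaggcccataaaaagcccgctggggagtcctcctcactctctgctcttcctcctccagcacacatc
Ptx3: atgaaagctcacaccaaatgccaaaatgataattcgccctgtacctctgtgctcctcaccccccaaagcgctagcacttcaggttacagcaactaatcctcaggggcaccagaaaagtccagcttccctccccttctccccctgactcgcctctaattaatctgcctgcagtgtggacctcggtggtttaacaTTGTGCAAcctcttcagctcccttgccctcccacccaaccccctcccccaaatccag
Serpina3g: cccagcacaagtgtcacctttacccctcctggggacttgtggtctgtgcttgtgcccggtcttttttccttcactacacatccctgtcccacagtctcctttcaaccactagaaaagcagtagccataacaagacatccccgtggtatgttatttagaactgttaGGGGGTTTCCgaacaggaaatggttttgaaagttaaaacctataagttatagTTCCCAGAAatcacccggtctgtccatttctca
Serpina3n: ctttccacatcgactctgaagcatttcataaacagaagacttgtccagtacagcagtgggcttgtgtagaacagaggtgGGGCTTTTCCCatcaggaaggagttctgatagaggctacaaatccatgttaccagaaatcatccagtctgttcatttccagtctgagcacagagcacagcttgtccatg

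Saa3, the serum amyloid A of mouse that is made mainly outside the liver, was a gene of Cd81-low fibroblasts, and its UMIs came from few of them. It had 16.8, 5.55 and 27.7 CPM in the Cd81-high fibroblasts of GFP-low replicate 1, GFP-low replicate 2 and whole mesenchyme, against 196, 134 and 571 CPM in the Cd81-low fibroblasts of the same libraries. The 2 classes did not overlap, and the fitted log2 difference was -4.04 ± 0.20 (SE, edgeR over 3 libraries), or 16.5-fold higher in Cd81-low. The Cd81-low class held 74.8%, 83.0% and 70.6% of all Saa3 UMIs of those libraries.

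Only 71 of 1163, 70 of 1337 and 438 of 2488 Cd81-low cells held a Saa3 UMI (6.11%, 5.24% and 17.6%), with up to 174, 151 and 477 UMIs in a single cell. The 1% of cells with the most Saa3 UMIs carried 69.4%, 73.0% and 35.8% of the class total. Most Cd81-low cells thus held no Saa3 UMI, and a minority held many. In Cd81-high cells 54 of 3488, 53 of 4560 and 34 of 624 held a Saa3 UMI (1.55%, 1.16% and 5.45%). Blood endothelium-like cells of whole mesenchyme gave 5.24% (42 of 802), at median depths of 5326 UMIs in Cd81-high and 2897.5 in blood endothelium-like cells, and no expression in Cd81-high cells is read from a share of that size. Of the 87 Saa3 UMIs in Cd81-high cells of whole mesenchyme, 21 lay in 1 cell.

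Across the named classes of whole mesenchyme, Saa3 followed the order Cd81-low fibroblasts (571 CPM, exact 95% Poisson interval 559 to 583), telocyte-like cells (103 CPM, 95 to 110), blood endothelium-like cells (78.8 CPM, 68.4 to 90.4) and Cd81-high fibroblasts (27.7 CPM, 22.2 to 34.1). Below these came smooth muscle or myofibroblast-like, glia-like, pericyte-like and lymphatic endothelium-like cells with 13, 5, 3 and 1 UMIs, and their intervals overlapped that of Cd81-high fibroblasts. The unnamed clusters together held 1104 CPM, 20.6% of the Saa3 UMIs of that library. Such intervals cover counting error only. The T or innate lymphoid-like cells of the GFP-low libraries had 303 and 230 CPM, but 162 UMIs came from 2 of 83 cells and 53 UMIs from 1 of 35. Those lymphoid-like classes also held 4398 and 6420 CPM of Adamdec1, and the part of mixed droplets in these values was not tested.

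Saa1, the liver-type serum amyloid A carried on lipoproteins, was scarce. Its near-identical neighbour Saa2 had 1 UMI over all Cd81-high and 3 UMIs over all Cd81-low cells, and reads that the authors' counting could not place between the copies would be missing from both. Cd81-high fibroblasts held 5, 5 and 2 Saa1 UMIs (0.241, 0.159 and 0.636 CPM), against 6, 19 and 96 UMIs in Cd81-low fibroblasts (0.758, 2.17 and 6.39 CPM). In whole mesenchyme the level in Cd81-low fibroblasts was 10.1-fold that in Cd81-high fibroblasts, with a counting interval of 2.71 to 84.2. Single cells decided several of these sums: 16 of the 19 UMIs in GFP-low replicate 2 lay in 1 cell, and 61 of the 79 UMIs of telocyte-like cells in whole mesenchyme lay in 1 cell. The Saa1 level of the Cd81-low class in GFP-low replicate 2 was 0.343 CPM without that cell.

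**Figure D1:**
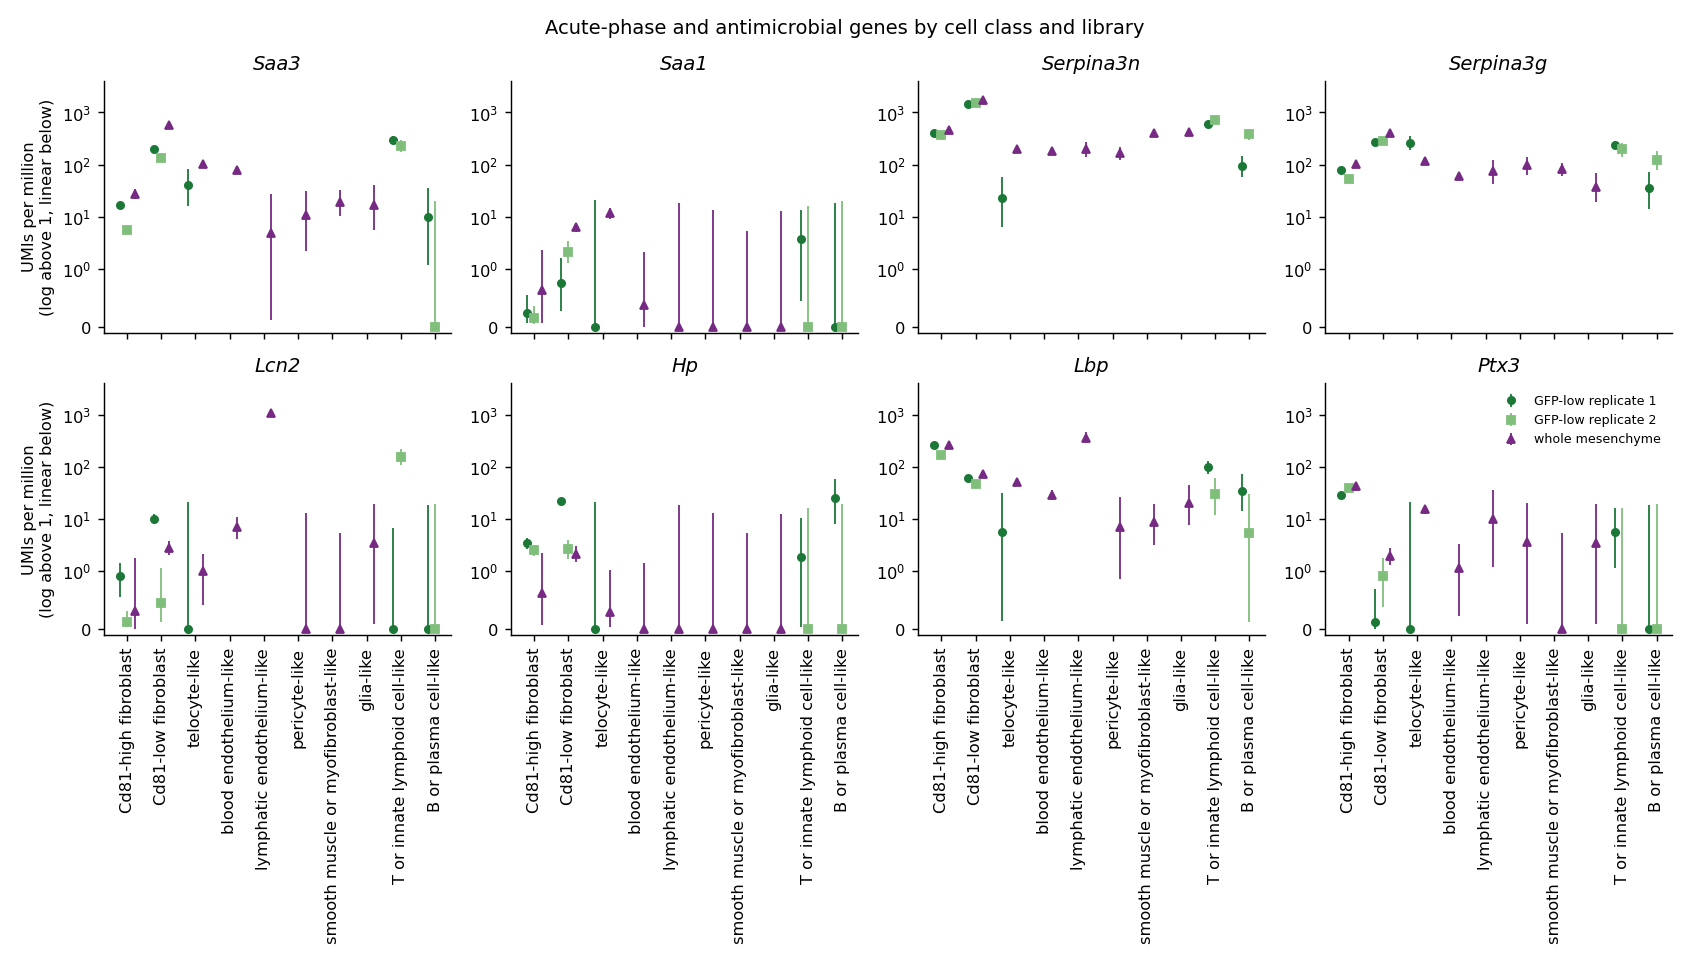
Level of each of the 8 genes (CPM, log scale above 1 and linear below) by cell class, with 1 point per library that had at least 20 cells of the class and bars for exact 95% Poisson intervals. Saa3, Serpina3n and Serpina3g are higher in Cd81-low than in Cd81-high fibroblasts, Lbp and Ptx3 are higher in Cd81-high fibroblasts, and Lcn2 has its highest point in the lymphatic endothelium-like cells of whole mesenchyme (1087 CPM).

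Serpina3n, a secreted inhibitor of serine proteases, was the member with the widest reach and the steadiest difference between classes. It had 400, 378 and 464 CPM in Cd81-high fibroblasts of GFP-low replicate 1, GFP-low replicate 2 and whole mesenchyme, against 1460, 1496 and 1746 CPM in Cd81-low fibroblasts. The level was 3.65-fold, 3.96-fold and 3.77-fold higher in Cd81-low in the 3 libraries, and the fitted log2 difference was -1.83 ± 0.11 (SE). The 1% of Cd81-low cells with the most UMIs carried 5.47%, 5.32% and 4.52% of the total, unlike Saa3 in the same cells.

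A Serpina3n UMI was found in 64.3%, 70.3% and 63.9% of Cd81-high cells, against 94.4%, 94.5% and 96.1% of Cd81-low cells. Thinned to 1000 UMIs per cell, the shares were 25.1%, 26.3% and 30.5% in Cd81-high cells, against 65.4%, 67.7% and 72.1% in Cd81-low cells. Blood endothelium-like cells of whole mesenchyme gave 10.5% when thinned, below both fibroblast classes. Within whole mesenchyme, glia-like cells (418 CPM) and smooth muscle or myofibroblast-like cells (410 CPM) came next to Cd81-high fibroblasts (464 CPM), with overlapping intervals. Telocyte-like (204 CPM), lymphatic endothelium-like (200 CPM), blood endothelium-like (185 CPM) and pericyte-like cells (166 CPM) were lower and could not be ordered among themselves beyond counting error. T or innate lymphoid-like cells of the GFP-low libraries had 593.5 to 725.9 CPM, above the Cd81-high fibroblasts there. A UMI was held by 43 of 83 and 20 of 35 of them, and the part of mixed droplets was not tested.

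Serpina3g, a mainly intracellular inhibitor of cysteine and serine proteases in mouse, showed the same side. It had 79.5, 54.2 and 103 CPM in Cd81-high fibroblasts, against 274, 282 and 411 CPM in Cd81-low fibroblasts. The groups did not overlap, with a fitted log2 difference of -1.97 ± 0.12 (SE), or 3.91-fold higher in Cd81-low. Cells with a UMI made up 25.4%, 17.6% and 28.7% of Cd81-high cells, against 59.1%, 56.5% and 65.6% of Cd81-low cells, and 10.9% of blood endothelium-like cells. Thinned as for Serpina3n, the shares were 6.42%, 3.79% and 8.65% in Cd81-high cells, against 19.35%, 20.94% and 27.93% in Cd81-low cells. Thinned blood endothelium-like cells gave 4.24% (2.95% to 5.87%), and the Cd81-high share of GFP-low replicate 2 was not above it. Among Cd81-high cells, only those of whole mesenchyme had an interval wholly above theirs (6.57% to 11.1%). Telocyte-like cells of whole mesenchyme had 118 CPM (110 to 126), in 300 of 1591 cells, next to Cd81-high fibroblasts at 103 CPM (91.8 to 115). T or innate lymphoid-like cells of the GFP-low libraries had 195.6 to 243.4 CPM, with a UMI in 42 of 83 and 17 of 35 cells. After thinning 18.1% and 17.1% of them held a UMI, and the part of mixed droplets was not tested. Reads of the Serpina3 copies can be split by the counting, so values of single Serpina3 genes are uncertain.

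Lcn2, lipocalin 2, which binds bacterial iron carriers, was nearly absent from fibroblasts and concentrated in the lymphatic endothelium-like cluster. Those 59 cells, all from whole mesenchyme, held 217 Lcn2 UMIs, 1087 CPM with an exact Poisson interval of 948 to 1242, and 52 of the 59 cells had at least 1. The highest single cell had 16 of the 217 UMIs. Blood endothelium-like cells came next among the named classes of that library with 6.95 CPM (4.12 to 11), and empty barcodes of the library, with 10 to 99 UMIs, held 12.9 CPM. Thinned to 1000 UMIs, 61.0% of the lymphatic-like cells held an Lcn2 UMI (exact binomial interval 47.4% to 73.5%), against 0.374% of blood endothelium-like cells. The lymphatic transcription factor Prox1 had 636 CPM in the cluster, while Epcam, Krt8, Ptprc, S100a8 and S100a9, which mark epithelium, leukocytes and neutrophils, had 0 UMIs there. A count of 0 allows up to 15 CPM in a class of that size. With 1 library and 59 cells there is no replicate check.

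In fibroblasts Lcn2 had 19, 4 and 1 UMIs in the Cd81-high class (0.915, 0.128 and 0.318 CPM), against 80, 4 and 43 UMIs in the Cd81-low class (10.1, 0.457 and 2.86 CPM). These UMIs lay in 8, 3 and 7 Cd81-low cells, and 62 of the 80 in GFP-low replicate 1 came from 1 cell, without which its level was 2.28 CPM. All but a few fibroblasts thus held none at this depth. Neutrophil markers summed to 0.241, 0.128 and 0.636 CPM in Cd81-high fibroblasts (2 or 3 of 6 detected), against 0.758, 0.228 and 0.533 CPM in Cd81-low fibroblasts (2 to 5 of 6 detected). Epithelial markers summed to between 2.81 and 5.09 CPM in Cd81-high, against 2.60 to 4.57 CPM in Cd81-low fibroblasts, with Cdh1 at 0 in every one of these sums. The 36 Lcn2 UMIs of T or innate lymphoid-like cells in GFP-low replicate 2 were all in 1 cell.

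Hp, haptoglobin, which binds free haemoglobin, was sparse and uneven between libraries. Cd81-high fibroblasts held 72, 79 and 2 UMIs (3.47, 2.52 and 0.636 CPM), against 173, 24 and 33 UMIs in Cd81-low fibroblasts (21.9, 2.74 and 2.20 CPM). The class ranges overlapped, and GFP-low replicate 1 set the size of the difference, with 72 of its 173 UMIs in 1 cell. The fitted log2 difference was -1.60 ± 0.46 (SE) and came to -0.30 without GFP-low replicate 1. In whole mesenchyme, blood endothelium-like, lymphatic endothelium-like, pericyte-like, smooth muscle or myofibroblast-like and glia-like cells held no Hp UMI. The unnamed clusters held 73 of the 110 Hp UMIs of that library (66.4%), against 30% in Cd81-low fibroblasts. In GFP-low replicate 1 the unnamed clusters held 27 of 278 Hp UMIs, or 208 CPM, in 3 of 49 cells.

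Ptx3, the long pentraxin that binds microbes and complement, was highest in the Cd81-high class, again in few cells. It had 29.1, 39.3 and 42.3 CPM in Cd81-high fibroblasts, against 0.126, 0.914 and 2.0 CPM in Cd81-low fibroblasts (1, 8 and 30 UMIs). The fitted log2 difference was 5.11 ± 0.29 (SE), and in GFP-low replicate 1, where the Cd81-low class held 1 UMI, the ratio was 230 with a counting interval of 41.2 to 9111. Of Cd81-high cells 186 of 3488, 258 of 4560 and 33 of 624 held a Ptx3 UMI (5.33%, 5.66% and 5.29%), against 0.0860%, 0.524% and 0.523% of Cd81-low cells and 0.374% of blood endothelium-like cells. The highest 1% of Cd81-high cells carried 51.8%, 57.4% and 68.4% of the UMIs. Telocyte-like cells of whole mesenchyme were next with 15.7 CPM (12.9 to 19.0), below Cd81-high fibroblasts (42.3 CPM, 35.4 to 50.1) and above Cd81-low fibroblasts (2.0 CPM, 1.35 to 2.85).

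Lbp, which hands bacterial lipopolysaccharide to the CD14 receptor, was on the same side as Ptx3 but spread over most cells. It had 268, 169 and 259 CPM in Cd81-high fibroblasts, against 61.3, 46.9 and 74.0 CPM in Cd81-low fibroblasts. The ranges did not overlap, and the fitted log2 difference was 2.01 ± 0.11 (SE), a 4.04-fold higher level in Cd81-high. Cells with a UMI made up 64.5%, 54.4% and 55.8% of Cd81-high cells, against 24.9%, 20.1% and 28.6% of Cd81-low cells. The highest 1% of Cd81-high cells carried 7.69%, 7.75% and 11.1% of the UMIs. The lymphatic endothelium-like cluster also held Lbp, at 366 CPM (287 to 460) in 38 of 59 cells, above the 259 CPM (241 to 277) of Cd81-high fibroblasts in that library. Blood endothelium-like cells had 29.4 CPM, with a UMI in 5.86% of cells.

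**Figure D2:**
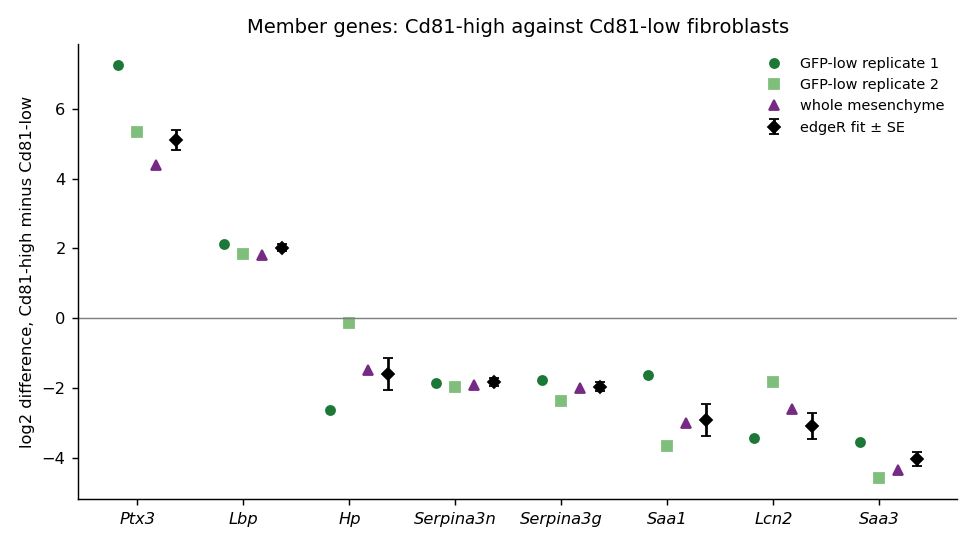
Difference of each gene between fibroblast classes (log2 of CPM in Cd81-high minus Cd81-low, 0.5 added to each count) in each of the 3 libraries, with the edgeR estimate and its standard error as black diamonds. Ptx3 and Lbp lie above 0 in every library and the other 6 below, with Hp in GFP-low replicate 2 near 0 and Serpina3n the tightest.

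Counted over the set, 2 members (Ptx3 and Lbp) were at least 2-fold higher in Cd81-high fibroblasts in every library, as were 3.86% of the 6421 genes tested. Another 5 (Saa1, Saa3, Lcn2, Serpina3g and Serpina3n) were at least 2-fold lower in every library, as were 6.07% of genes. Hp was not counted on either side. All 8 members passed the filter on low counts, and their direction was known when the set was drawn up, so nothing is read from these counts.

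**Figure D3:**
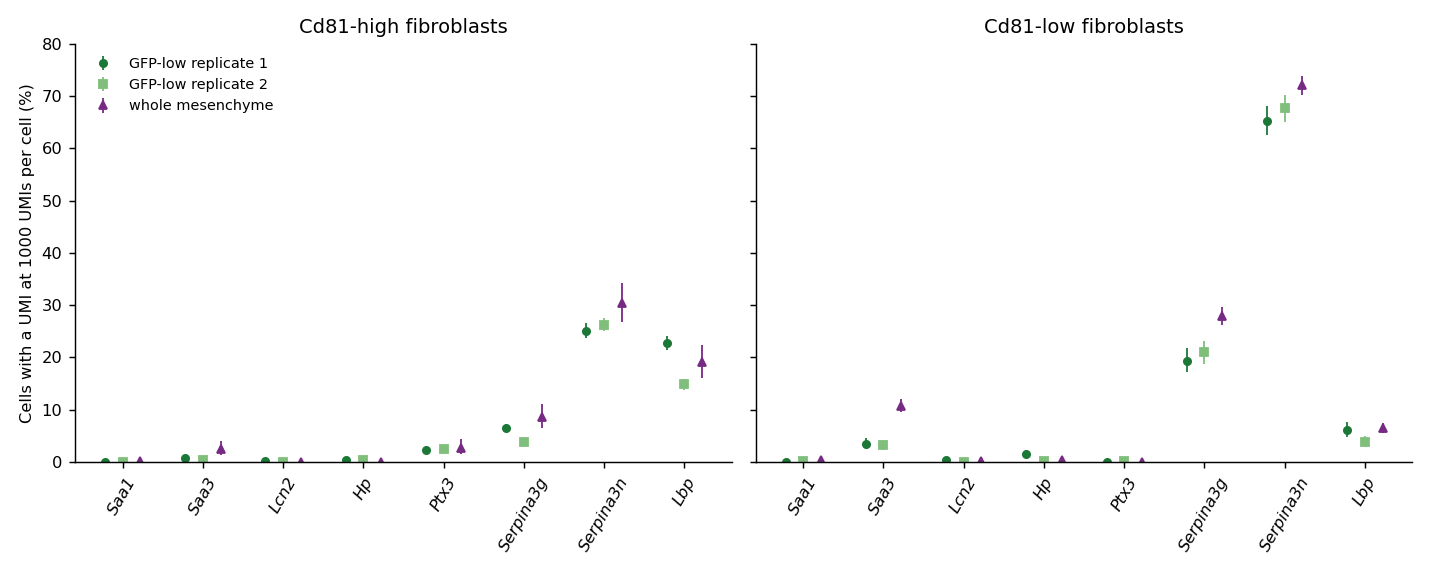
Percentage of Cd81-high (left) and Cd81-low (right) fibroblasts with at least 1 UMI of each gene after every cell was thinned to 1000 UMIs, by library, with exact 95% binomial intervals. Serpina3n reaches 65.4% to 72.1% of Cd81-low cells, Saa3 3.14% to 10.7%, and Ptx3 2.18% to 2.72% of Cd81-high cells.

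RNA outside cells differed between libraries. Barcodes with 10 to 99 UMIs held 40.2, 36.4 and 327 CPM of Saa3 in GFP-low replicate 1, GFP-low replicate 2 and whole mesenchyme, above the Saa3 level of the Cd81-high cells in each library. For Serpina3n the same barcodes held 416, 417 and 728 CPM. Their intervals hold the Cd81-high level in GFP-low replicate 1 (392.6 to 440.2) and replicate 2 (369.6 to 467.6). In whole mesenchyme the interval (652.1 to 809.5) lies above the Cd81-high level. For Serpina3g they held 94.6, 77.2 and 215 CPM, above the Cd81-high cells in each library. For Ptx3 they held 25.8, 23.3 and 2.15 CPM, above the Cd81-low cells in the GFP-low libraries, while the value of whole mesenchyme rested on 1 UMI. For Lbp they held 233, 94.7 and 71.0 CPM, against 61.3, 46.9 and 74.0 CPM in Cd81-low cells. The barcodes thus lay above the Cd81-low cells in the GFP-low libraries. In whole mesenchyme their interval (48.9 to 99.8) holds the Cd81-low level. For Hp they held 14.0, 0 and 6.46 CPM, on 40, 0 and 3 UMIs, against 3.47, 2.52 and 0.636 CPM in Cd81-high cells. The Hp interval of GFP-low replicate 1 (9.98 to 19.0) lies above the Cd81-high level there. In these barcodes Saa3 was highest in whole mesenchyme, where Cd81-low cells were more common (36.6% of cells, against 24.1% and 22.2% in the GFP-low libraries), and Ptx3 was higher in the GFP-low libraries, where Cd81-high cells made up 72.2% and 75.7%. These shares of cells are set by the sort. The part of free RNA in the levels of the lower class was not tested.

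Whether the members shared cells was described by counting cells of the Cd81-low class that held a UMI of both genes. Saa3 and Serpina3g met in 51, 45 and 320 cells, against 41.9, 39.6 and 287 if they were independent. Saa3 and Serpina3n met in 66, 67 and 421 cells, against 67.0, 66.1 and 421 if independent. Serpina3n had a UMI in 94.4%, 94.5% and 96.1% of Cd81-low cells. Its overlap with Saa3 could therefore hardly exceed independence, and nothing is read from it. In whole mesenchyme Saa1 and Saa3 met in 20 cells, against 8.27 if independent. Deeper cells hold more of every gene, which raises all such counts, and after thinning the Saa1 and Saa3 overlap rested on 5 cells.

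Fibroblast clusters showed where inside the classes the members sat. Ptx3 was uneven within the Cd81-high class. Cluster 6 had 103, 104 and 76.9 CPM and cluster 11 had 101 CPM in GFP-low replicate 2 and 194 CPM in whole mesenchyme. Cluster 8, led by Pi16 and Sfrp4, had 53.8 CPM in GFP-low replicate 1, where most of its cells were, but 14.7 CPM in its 20 cells of GFP-low replicate 2 and 12.3 CPM in whole mesenchyme. Cluster 0 had 26.9 and 24.8 CPM in GFP-low replicate 2 and whole mesenchyme. Cluster 2 had 10.6, 0 and 11.6 CPM in the 3 libraries. Clusters 6 and 11 were thus the highest in each library in which they had a sum, and the order of the other clusters differed between libraries. Cluster 5 had 19.8, 2.86 and 0 CPM. Cluster 6 was also the shallowest, its depth 0.301 times the library median, and without it the fitted class difference of Ptx3 was 4.99 (log2).

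Lbp varied less inside the class. Over the 6 Cd81-high clusters it lay between 121 CPM (cluster 11 in GFP-low replicate 2) and 440 CPM (cluster 6 in GFP-low replicate 1), and over the 3 Cd81-low clusters between 35.5 and 78.2 CPM, so that no sum of at least 20 cells crossed between classes. Serpina3n behaved alike on the other side, with 178 to 585 CPM over Cd81-high clusters, against 1002 to 2127 CPM over Cd81-low clusters. Saa3 had 2.33 CPM (1.28 to 3.92) in cluster 8 of GFP-low replicate 1 and 0.778 CPM (0.252 to 1.82) in cluster 11 of GFP-low replicate 2, while cluster 2 had 25.2 CPM (22.5 to 28.1) in GFP-low replicate 1. Hp was highest among fibroblast sums in cluster 7, at 23.2 CPM with 171 of the 173 UMIs of the Cd81-low class in GFP-low replicate 1. The members themselves were kept out of the clustering.

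**Figure D4:**
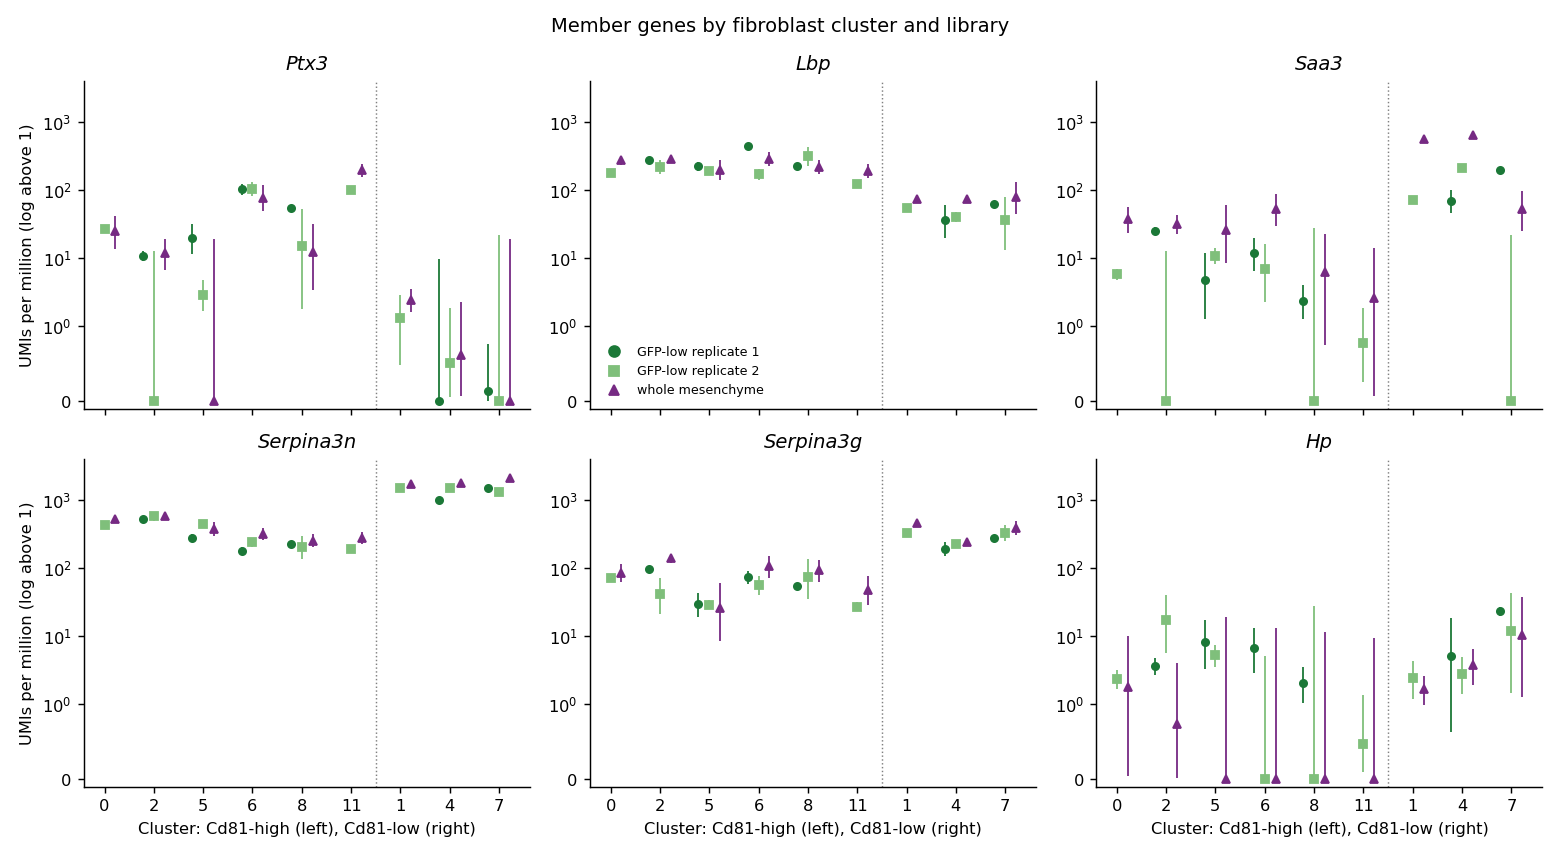
Level of 6 of the genes (CPM, log scale above 1 and linear below) in the 6 Cd81-high clusters (left of the dotted line) and the 3 Cd81-low clusters (right), by library, for sums of at least 20 cells, with exact 95% Poisson intervals. Ptx3 is highest in clusters 6 and 11, while Lbp and Serpina3n keep the classes apart in every library.

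Between the libraries, levels within a class were compared by size only, because whole mesenchyme is 1 library, and different clusters make up a class in each. In Cd81-low fibroblasts Saa3 was 2.92-fold and 4.26-fold lower in GFP-low replicates 1 and 2 than in whole mesenchyme, and Saa1 and Ptx3 were also at least 2-fold lower in both, as were 2.35% of 12835 genes, against 1.36% at least 2-fold higher. Ptx3 rested on 1 and 8 UMIs in the GFP-low replicates and 30 in whole mesenchyme. In cluster 4 alone it rested on 0, 2 and 2 UMIs (0, 0.501 and 0.613 CPM), too few to give a direction. The Saa3 difference in cluster 4 alone had a mean log2 of -2.40. Serpina3n was 1.20-fold and 1.17-fold lower in GFP-low replicates 1 and 2 than in whole mesenchyme. In Cd81-high fibroblasts Hp was the member at least 2-fold higher in both GFP-low replicates, with 72 and 79 UMIs against 2 in whole mesenchyme, as were 2.38% of 13358 genes, and no member with at least 10 UMIs in a library was 2-fold lower in both, as were 2.99% of genes. Saa1, with 5 and 5 UMIs against 2, was too scarce to count. Lcn2 differed between the GFP-low replicates themselves, at 10.1 and 0.457 CPM in Cd81-low fibroblasts with 2.86 CPM in whole mesenchyme between them.

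The genes around the set were taken from 9 lists of 149 genes, drawn up with earlier results known, and tested between the fibroblast classes with edgeR's quasi-likelihood test over all 6421 genes (Benjamini-Hochberg adjustment, threshold 0.05). Of the 95 list genes tested, 28 were higher and 20 lower in Cd81-high fibroblasts, while of all genes tested 31.9% passed, 15.7% higher and 16.2% lower, with a median log2 difference of -0.00. The list medians lay between -1.27 and 0.57.

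Among 28 other acute-phase proteins only 9 could be tested. Of these 5 rose in Cd81-high fibroblasts, 1 fell and 3 did not pass (median log2 difference 0.57). The complement component C3 had 7703, 4242 and 6131 CPM in Cd81-high fibroblasts, against 1351, 1123 and 1332 CPM in Cd81-low fibroblasts (log2 2.30 ± 0.16 SE, edgeR adjusted p = 1.62e-05). Factor B (Cfb) had 141, 43.1 and 86.5 CPM, against 49.7, 17.5 and 38.2 CPM (log2 1.42 ± 0.10, edgeR adjusted p = 2.26e-05). Itih3, a hyaluronan-binding inhibitor chain, fell (log2 -1.74 ± 0.23, edgeR adjusted p = 0.00073) at 2.17, 1.79 and 3.5 CPM in Cd81-high, against 7.71, 8.34 and 6.53 CPM in Cd81-low fibroblasts. The 19 not tested include Crp, Apcs, Orm1 and Hamp, genes best known from the liver.

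Of 9 other genes of the Serpina3 cluster 4 could be tested, and 3 fell, none rose and 1 did not pass in Cd81-high fibroblasts, with a median log2 difference of -1.27. Serpina3f had 38.1, 39.9 and 28.3 CPM in Cd81-high, against 88.9, 129 and 154 CPM in Cd81-low fibroblasts (log2 -1.61 ± 0.20, edgeR adjusted p = 0.00045). Serpina3m (log2 -1.34 ± 0.25, edgeR adjusted p = 0.00412) and Serpina3i (log2 -1.20 ± 0.19, edgeR adjusted p = 0.00196) were scarcer, and the Serpina3m call was lost without the library block and after thinning. Serpina3c did not pass, with 17.0, 7.81 and 8.58 CPM in Cd81-high, against 11.4, 12.2 and 12.8 CPM in Cd81-low fibroblasts. Shared reads among these copies leave the individual values uncertain.

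Other antimicrobial genes gave 2 that rose, 2 that fell and 3 that did not pass, out of 7 tested. Rarres2, the precursor of the attractant chemerin, had 1118, 814 and 906 CPM in Cd81-high, against 2545, 2806 and 2206 CPM in Cd81-low fibroblasts (log2 -1.33 ± 0.14, edgeR adjusted p = 0.000198). The ribonuclease Ang was higher in Cd81-high fibroblasts (log2 0.72 ± 0.08, edgeR adjusted p = 0.000291). Slpi, a leukocyte protease inhibitor, passed on very few UMIs, with 3, 0 and 0 in Cd81-high, against 15, 9 and 7 in Cd81-low fibroblasts (edgeR adjusted p = 0.00298).

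Among interleukin 6 family ligands and receptors 4 of 11 rose, 2 fell and 5 did not pass. The ligands Lif (log2 1.14 ± 0.15, edgeR adjusted p = 0.000685) and Clcf1 (log2 1.35 ± 0.31, edgeR adjusted p = 0.0122) were higher in Cd81-high fibroblasts. Lifr, a receptor of Lif, was lower, with 30.3, 32.4 and 30.2 CPM in Cd81-high, against 76.3, 104 and 81.6 CPM in Cd81-low fibroblasts (log2 -1.39 ± 0.09, edgeR adjusted p = 1.33e-05). Of 10 genes of STAT3 and C/EBP signalling 8 did not pass, Stat3, Socs3, Cebpb and Cebpd among them. Cebpa fell (log2 -0.61 ± 0.10, edgeR adjusted p = 0.00171) and Jak1 rose (log2 0.54 ± 0.11, edgeR adjusted p = 0.00573). The Jak1 call was lost without GFP-low replicate 1.

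The interleukin 1, tumour necrosis factor and Toll-like list had the widest spread, with 4 of 17 genes higher, 7 lower and 6 not passing (median log2 difference -0.17). Il1r2, the decoy receptor of interleukin 1, had 0.482, 0.956 and 1.91 CPM in Cd81-high, against 12.6, 10.5 and 13.5 CPM in Cd81-low fibroblasts (log2 -3.64 ± 0.28, edgeR adjusted p = 3.16e-05). Il1b had 8, 6 and 1 UMIs in Cd81-high, against 87, 44 and 76 UMIs in Cd81-low fibroblasts (edgeR adjusted p = 1.07e-05), and Il1rn, which encodes the receptor antagonist, had 2, 3 and 0 UMIs, against 24, 19 and 46 (edgeR adjusted p = 0.000183). Chosen after its values were seen, the signalling receptor Il1r1 had 33.7, 24.7 and 30.5 CPM in Cd81-high, against 174, 145 and 146 CPM in Cd81-low fibroblasts (log2 -2.31 ± 0.09, edgeR adjusted p = 9.62e-07).

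Also chosen after their values were seen were the partners of Lbp. Tlr4, the lipopolysaccharide receptor, was higher in Cd81-high fibroblasts (17.2, 28.7 and 23.8 CPM, against 11, 15.4 and 12.5 CPM in Cd81-low; log2 0.92 ± 0.11, edgeR adjusted p = 0.000368). Its co-receptor Ly96 was lower in Cd81-high fibroblasts (9.35, 9.59 and 10.2 CPM, against 17.6, 17.1 and 17.6 CPM; log2 -0.75 ± 0.11, edgeR adjusted p = 0.00117), and Cd14 did not pass. Macrophage or dendritic cell markers summed to 8.24, 5.99 and 11.8 CPM in Cd81-high fibroblasts (4 to 7 of 7 detected), against 24.5, 18.6 and 13.1 CPM in Cd81-low fibroblasts (7 of 7 detected). B or plasma cell markers summed to 46.7, 60.5 and 53.1 CPM in Cd81-high fibroblasts (4 to 6 of 6 detected), against 466, 214 and 96.8 CPM in Cd81-low fibroblasts (4 to 6 of 6 detected). The part of either list in the Il1b, Il1rn and other immune gene values was not tested.

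NF-kappa-B factors and feedback genes gave 3 of 13 higher, 1 lower and 9 not passing. Nfkbiz (log2 0.95 ± 0.21, edgeR adjusted p = 0.00902) and Nfkb1 (log2 0.75 ± 0.14, edgeR adjusted p = 0.00386) rose in Cd81-high fibroblasts, and Nfkbie fell slightly (log2 -0.45 ± 0.12, edgeR adjusted p = 0.0256). Among 8 tested receptors and partners of the members 3 rose, 2 fell and 3 did not pass. Tnfaip6, which binds pentraxin 3 in hyaluronan matrices, rose (log2 0.95 ± 0.19, edgeR adjusted p = 0.00569), as did Lrp1 (log2 0.58 ± 0.11, edgeR adjusted p = 0.00352). The iron exporter Slc40a1 fell, with 22, 16.9 and 12.1 CPM in Cd81-high, against 64.6, 63.4 and 37.3 CPM in Cd81-low fibroblasts (log2 -1.61 ± 0.10, edgeR adjusted p = 1.01e-05). Without GFP-low replicate 1 the calls of Nfkbiz, Tnfaip6 and Lrp1 were lost, and that of Nfkbie was lost there and without whole mesenchyme.

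Of 16 genes that respond to tissue dissociation 6 rose in Cd81-high fibroblasts, 1 fell and 9 did not pass, with a median log2 difference of 0.40. Atf3 led them (log2 1.08 ± 0.22, edgeR adjusted p = 0.00608), ahead of Nr4a1 (log2 0.74 ± 0.20, edgeR adjusted p = 0.0252) and Ier2 (log2 0.65 ± 0.17, edgeR adjusted p = 0.0189). Without GFP-low replicate 1 none of the 16 passed, and without whole mesenchyme 12 passed. The list summed to 39448, 52723 and 43009 CPM in Cd81-high, against 31140, 34603 and 47067 CPM in Cd81-low fibroblasts, so the direction in whole mesenchyme was opposite to that in the GFP-low libraries. Its part in the differences of the immune genes was not tested.

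**Figure D5:**
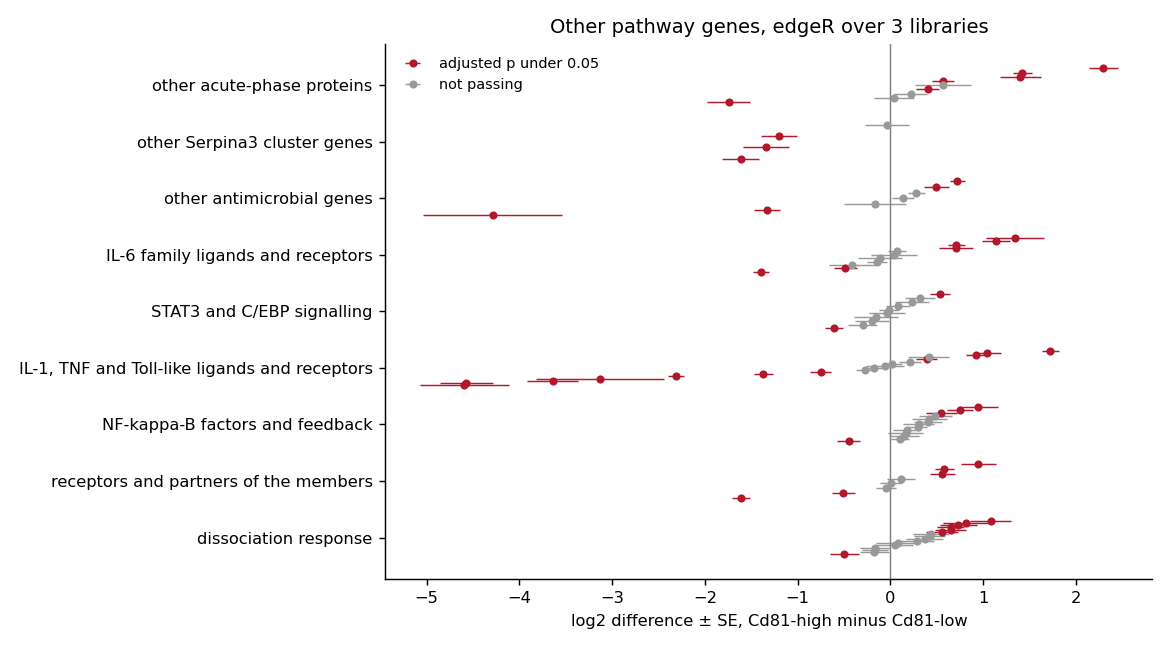
The log2 difference between Cd81-high and Cd81-low fibroblasts with its standard error (edgeR over 3 libraries) for every tested gene of the 9 lists, 1 point per gene, red where the adjusted p is under 0.05. The Serpina3 list lies at or below 0, C3 is the highest point of the acute-phase list at 2.30, and the interleukin 1 list reaches the lowest values.

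The genes whose levels ran most like each member were ranked by Pearson's r of log2(CPM + 1) over 38 sums of a class or fibroblast cluster in a library, among 7371 genes with at least 50 CPM in a sum. These sums share libraries, free RNA and depth, and the coefficients are descriptions. Serpina3n ran most like Fam198b (0.87), Sfrp1 (0.86) and Alpl (0.82). Serpina3g ran most like Ugcg (0.85), Hpse (0.84) and A4galt (0.83), and Lbp most like Thsd7a (0.85), Zfp521 (0.84) and C3 (0.84). The other members had looser neighbours. Ptx3 had Abl2 (0.76), Adamts5 (0.75) and Jak1 (0.73), and Saa3 had Slc43a2 (0.71), Areg (0.70) and Rgs2 (0.70). Lcn2 had F2rl1 (0.74), Wipf3 (0.74) and Gpr182 (0.72). Its level was 1087 CPM in the lymphatic endothelium-like sum and at most 156.5 CPM in the other class sums, so its coefficients lean on few sums. Hp had Il1rn (0.69), Sfrp1 (0.61) and Tmem86a (0.60), and Saa1 had Pla2g7 (0.60) and Chsy1 (0.56) among its closest. Within the set, r was highest for Ptx3 and Lbp (0.63), Saa3 and Serpina3g (0.59), Saa1 and Saa3 (0.56) and Serpina3g and Serpina3n (0.55), and lowest for Ptx3 and Serpina3g (-0.43).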

How the data were processed

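The authors deposited 1 table of UMI counts per library, for which the submitters' processing notes name Cell Ranger 3.0.2 and mm10. The counts were used as deposited.

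Barcodes with at least 1000 UMIs, 500 genes and at most 20% mitochondrial UMIs were kept as cells. Scrublet (scanpy 1.11.5) marked 2, 3 and 3 cells and so did not work as a doublet filter. Leaving out the top 6% of scores was an alternative. Genes were divided at random into 15514 for clustering, with all 107 markers, and 15539 held out, with the 8 members and every list gene in the matrix. The 17652 cells were clustered on 2000 variable genes (30 principal components, 15 neighbours, Leiden resolution 1, leidenalg 0.10.2). Clusters were named from markers among their 10 leading genes or, with none there (cluster 11), from the most elevated markers, in each case with at least 3 elevated 1.5-fold against the mean CPM of the other clusters, a reference chosen after the clusters were seen. UMIs were summed per library and class (at least 20 cells), and edgeR 4.0.16 (R 4.3.3) set Cd81-high against Cd81-low sums by its quasi-likelihood test, with filterByExpr, TMM factors, the library as a block and Benjamini-Hochberg adjustment. The same number marks the same library in both classes, so the sums are paired by the cells' own source. DESeq2 1.42.0, other size factors, no filter, other clusterings, deeper or thinned cells and each library left out were alternatives. On simulated counts of 6259 genes the edgeR comparison recovered 92% of 100 genes changed 2-fold and 100% of 100 changed 4-fold, with 11 false calls among 6059 unchanged genes. The simulated counts gave every gene the same relative spread and held no difference between libraries but depth. These rates may therefore not hold for the real sums. The members and lists were chosen with earlier results of these data known. Up to 3 genes per list are named, those of largest difference among genes that passed and kept 1 direction in all libraries. For Saa1, 1 gene of similar pattern is not reported here. Intervals are exact Poisson or binomial at 95%, and a count of 0 allows up to 3 counts. Both cover counting error only. Promoters and positions are from RefSeq tables (GRCm38.p6).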

Additional observations from a re-analysis of the deposited data

How the results depend on the processing

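The class difference passed for 2050 genes, and for 829 without the replicate block, which pairs the classes of a library, for 1182 with cells thinned to 1000 UMIs, and for 1170 to 2350 when a library was left out, lowest without GFP-low replicate 1. Of the list genes 48 passed, 20 without the replicate block and 28 to 64 when a library was left out. All 8 members differed by at least 2-fold in the fit, and 5 did after thinning, when only 5 passed the low-count filter. The count was 6 to 8 when a library was left out. The members at least 2-fold higher in every library stayed 2 in all alternatives run, and those at least 2-fold lower ranged from 4 to 6. No member's fitted difference changed sign. Between libraries, the mean Ptx3 difference within Cd81-low fibroblasts came to 0.23 (log2) in cluster 4 alone, an alternative added after the data were seen. That value rests on 0, 2 and 2 UMIs with 0.5 added to each count, so no direction is read from it. Calls lost without the replicate block include Cfb, Serpina3m, Jak1, Nfkbiz, Nfkb1, Nfkbie, Tnfaip6, Lrp1, Atf3, Nr4a1 and Ier2. Itih3, Serpina3m, Cebpa and Nfkbie were lost after thinning. Depth limits Saa1, Lcn2 and Hp in fibroblasts, where single cells decide the sums.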

Other observations

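Saa3 was also found in clusters that could not be named. The closest type was Cd81-low fibroblast for clusters 15 and 17, with 5 and 6 elevated markers. Another type had as many in cluster 15, and cluster 17 was shallow without a leading marker. For cluster 9 the closest type was telocyte, with 2 elevated markers, and the alternative clusterings differed on this. At Leiden resolution 2 a cluster of 873 cells with Tsix, Dll1 and Lama1 among its leading genes, as in cluster 9, was named Cd81-low fibroblast. It had 7 elevated markers. With all genes but members and lists, a like cluster of 817 cells stayed unnamed, and telocyte was closest with 2 elevated markers. In whole mesenchyme, cluster 15 (79 cells, led by Nrg1, Mmp10 and Ces1g) held 1699 Saa3 UMIs in 27 cells, or 2317 CPM (exact Poisson interval 2208 to 2430). The same cells had 92.7 CPM of Hp (72.0 to 118), 21.8 CPM of Lcn2 (12.5 to 35.4) and 472 CPM of Serpina3g (423 to 524), while Serpina3n had 495 CPM and Ptx3 0 UMIs. Over all libraries the cells of cluster 15 were deep, at 2.04 times the median UMIs of their libraries, and mixed droplets were not removed. Cluster 17 had 2553 CPM of Saa3 (2174 to 2979) in 10 of its 41 whole mesenchyme cells, which were shallow, and 0 UMIs in its 20 cells of GFP-low replicate 1. Cluster 9, shallow and mostly from whole mesenchyme, had 437 CPM.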
